A study of Mus musculus with 20 samples.

Results

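The libraries labelled resting Atp2a2 knockout (KO) are 2 of the 20 libraries of a mouse RNA sequencing series, and they are set here against the 2 libraries of resting control T cells, so 4 of 20 libraries were compared, over all genes. They were chosen by their sample labels and not by any measured value. The 12 T cell libraries of the series are all of OT-I/Cas9 CD8 T cells, which carry a transgenic T cell receptor for an ovalbumin peptide together with the Cas9 nuclease. The cells were grown with the cytokines IL-2, IL-7 and IL-15 and with puromycin, so "resting" here means cultured without receptor stimulation, not freshly isolated and naive.

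By their labels, which the data call into doubt below, the libraries labelled resting Atp2a2 KO came from cells of the Atp2a2 KO genotype given dimethyl sulfoxide vehicle without plate-bound anti-CD3. The other groups are likewise given as labelled. Activated Atp2a2 KO cells had the same genotype and vehicle plus anti-CD3 coated at 2.5 µg/mL for 24 hours. Resting control cells had the control genotype with vehicle and no anti-CD3, and activated control cells had the control genotype with vehicle and anti-CD3. Control cells given thapsigargin (TG, a drug that blocks the SERCA calcium pumps) at 50 ng/mL for 8 hours, activated or resting, served as a further yardstick. Each group had 2 libraries. How many guides or clones made the KO, the share of cells edited, the mice, their age and sex, and whether the 2 libraries of a group were separate cultures are not given in the sources used here, so p-values measure the spread between these libraries, which may be technical.

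Atp2a2 encodes SERCA2, the pump that returns calcium from the cytosol to the endoplasmic reticulum (ER). When the T cell receptor is engaged, the ER store empties, STIM proteins open ORAI channels in the plasma membrane, and the sustained calcium signal switches on the phosphatase calcineurin, which sends NFAT factors to the nucleus. Together with AP-1 and NF-kB these drive cytokine genes, while genes of the quiescent state are shut down. An ER that loses calcium folds proteins poorly, which raises chaperone genes and the integrated stress response (ISR).

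Total counts came to 10542364 and 9985311 in the libraries labelled resting KO, against 12799661 and 11028101 in resting control, and the 12 T cell libraries spanned 9985311 to 17462770. Values below are CPM, counts divided by library size after scaling with edgeR's trimmed mean of M values, given for replicate 1 and then replicate 2. A gene is called where edgeR's quasi-likelihood test gave a Benjamini-Hochberg adjusted p below 0.05 over the 13432 genes tested in the 12 T cell libraries. Differences are log2 ratios, and errors are standard errors of those ratios.

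The label of these libraries is doubtful, and this bears on every value that follows. Over the 2508 genes with at least 100 CPM on average, the SD of the log2 ratio between the 2 labelled resting KO libraries was 0.068, and between the 2 activated KO libraries it was 0.0915. Across the labels, the 4 pairs of an activated and a labelled resting KO library had SDs of 0.0729 to 0.109, which overlaps the range of 0.0595 to 0.0915 seen between libraries of the same T cell group. Against the activated control libraries the labelled resting KO libraries had SDs of 0.253 to 0.26, and against the resting control libraries 0.935 to 0.949. No pair of T cell libraries was identical, and each pair differed by more than sampling noise in a chi-square test of the counts. By this measure the 4 KO libraries did not separate by their resting and activated labels, and those labelled resting lay far from the resting control. The series holds no KO library with a resting pattern, so a change of the KO cells themselves, their culture and the label cannot be told apart.

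Atp2a2 itself, on chromosome 5 (GRCm38, chr5:122453513-122502225, minus strand), was not lower in the libraries labelled resting KO than in resting control. It had 455 and 452 CPM in the libraries labelled resting KO, against 225 and 226 CPM in resting control. Activated KO had 434 and 436 CPM, against 664 and 687 CPM in activated control. The log2 difference of the labelled resting KO was 1.01 ± 0.04 from resting control (adjusted p = 9.9e-32) and -0.57 ± 0.03 from activated control (adjusted p = 1.5e-20). Its exons overlap the antisense gene Gm43361 by 83 bases, and reads of both cannot be told apart where the strand of counting is not stated. Activation in control cells raised the transcript by 1.58 ± 0.04. A count over all exons does not show whether Cas9 cut the gene, since small insertions and deletions can leave a transcript in place, so this check neither bears out nor contradicts the KO label. The guide's sequence is not printed here. Atp2a3, which encodes SERCA3, the other SERCA pump of lymphocytes, had 124 and 124 CPM in the libraries labelled resting KO, against 471 and 467 CPM in resting control. In activated control it had 78.9 and 80.9 CPM.

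**Figure D1:**
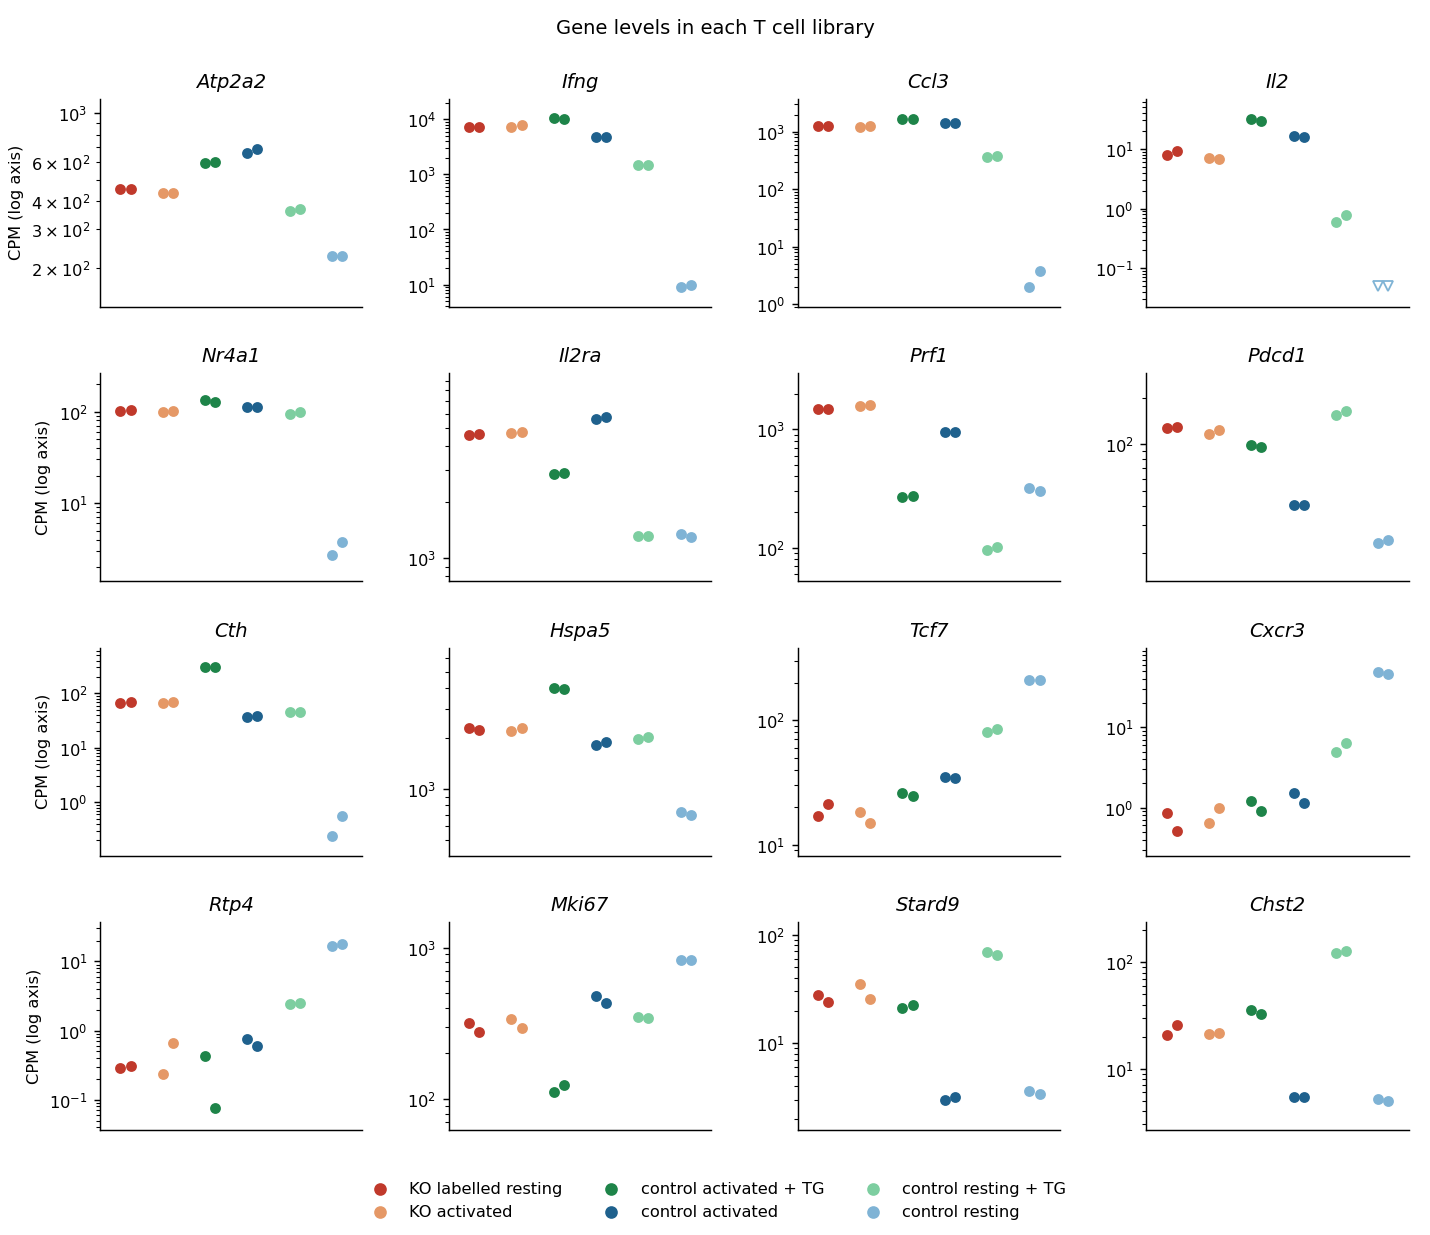
Scaled CPM (log axis) of 16 genes, with 1 point per library and 2 libraries per group, from left to right labelled resting Atp2a2 KO, activated Atp2a2 KO, activated control with TG, activated control, resting control with TG and resting control. Open triangles stand for a value of 0, drawn at 0.05 CPM, and in every panel the labelled resting KO points lie beside the activated KO points and away from the resting control.

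Between the libraries labelled resting KO and resting control, 9343 of 13432 genes were called, which is 69.6% of those tested. Of these, 4524 were higher in the labelled resting KO (33.7% of genes tested) and 4819 were lower (35.9%). At a change of 2-fold or more, 1495 were higher and 1901 lower. Activation of control cells called 9990 genes (74.4%), of which 4740 rose and 5250 fell. Both comparisons subtract the same 2 resting control libraries, so errors in those libraries push both the same way and the counts that follow are a description.

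Most of the called genes moved in the direction of activation. Of the 9343 called genes, 8522 (91.2%) were called in the same direction in activation of control cells, 81 (0.867%) in the opposite direction, and 740 (7.92%) were not called there. Read from the other side, the 8522 genes were 85.3% of the activation calls. Among the 3396 genes called at 2-fold or more, 3202 (94.3%) were called in the activation direction, 10 in the opposite direction and 184 not at all. Of the 9343 genes, 5816 (62.2%) were not called between labelled resting KO and activated control. The others were called there, 1405 (15%) in the same direction and 2122 (22.7%) in the opposite one. Of all 13432 genes tested, 4237 (31.5%) were called in that comparison, so being not called there does not set the 9343 genes apart. Activation under TG compares groups that share no library with the first comparison and called 8576 genes (63.8%). Of the 9343 genes, 5999 (64.2%) were called in the same direction there and 813 (8.7%) in the opposite direction.

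**Figure D2:**
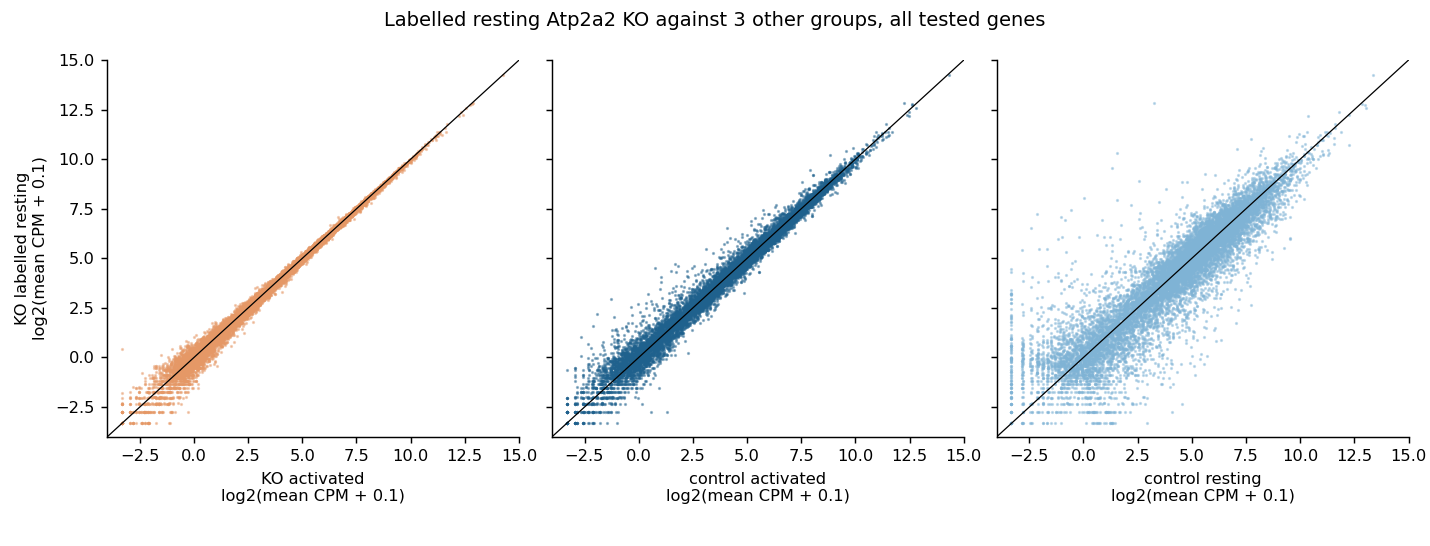
Mean CPM of all 13432 tested genes in the libraries labelled resting Atp2a2 KO (vertical axis) against activated Atp2a2 KO, activated control and resting control (horizontal axes), each as log2 of CPM plus 0.1. The points hug the line of equality against activated KO, widen slightly against activated control and scatter widely against resting control.

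The size of the change can be put as a share of activation, the labelled resting KO difference of a gene divided by its activation difference. Over the 3755 genes that activation changed at least 2-fold, the median share was 0.884, with the middle 50% of genes between 0.746 and 1.04. It was 0.892 over the 1639 genes that rose with activation and 0.87 over the 2116 that fell. In 3369 genes (89.7%) the share lay between 0.5 and 1.5, and in 37 it was below 0. Of the 3755 genes, 2229 were not called between the labelled resting KO and activated control, 1193 fell short of the activated level and 333 went past it. Of all genes tested, 31.5% were called in that comparison, so the count of 2229 does not set the activation genes apart. Resting control replicate 1 was then used for the KO difference and replicate 2 for activation, so the ratio shared no library between its parts. This gave a median of 0.885, and the reverse gave 0.89. The genes were still those that the activation contrast called with all its libraries, so their choice was not independent of the divisor.

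**Figure D3:**
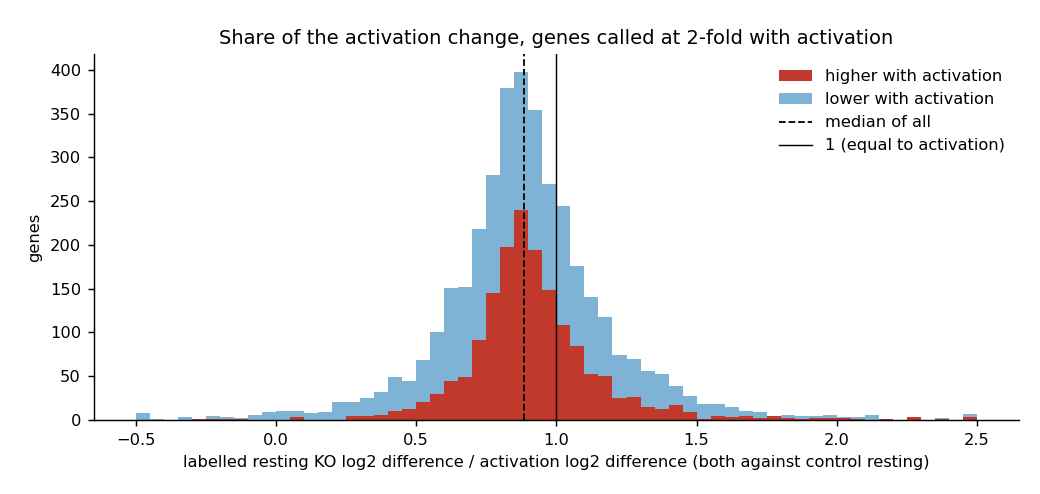
Number of genes by the share of the activation change seen in the libraries labelled resting Atp2a2 KO, over the 3755 genes that activation changed at least 2-fold, stacked by the direction of the activation change. The dashed line is the median of 0.884, the solid line marks equality with activation, and the end bins also hold the values beyond them.

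The root mean square log2 difference over all tested genes gave the same order of nearness. It was 0.233 from the libraries labelled resting KO to activated KO, 0.404 to activated control, 0.763 to activated control with TG, 1.03 to resting control with TG and 1.15 to resting control. Called genes numbered 79 between activated and labelled resting KO (0.588% of genes tested, and 15 to 191 genes with 1 of the 4 KO libraries left out), 4237 against activated control (31.5%), 7765 against activated control with TG (57.8%), 9357 against resting control with TG (69.7%) and 9343 against resting control.

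**Figure D4:**
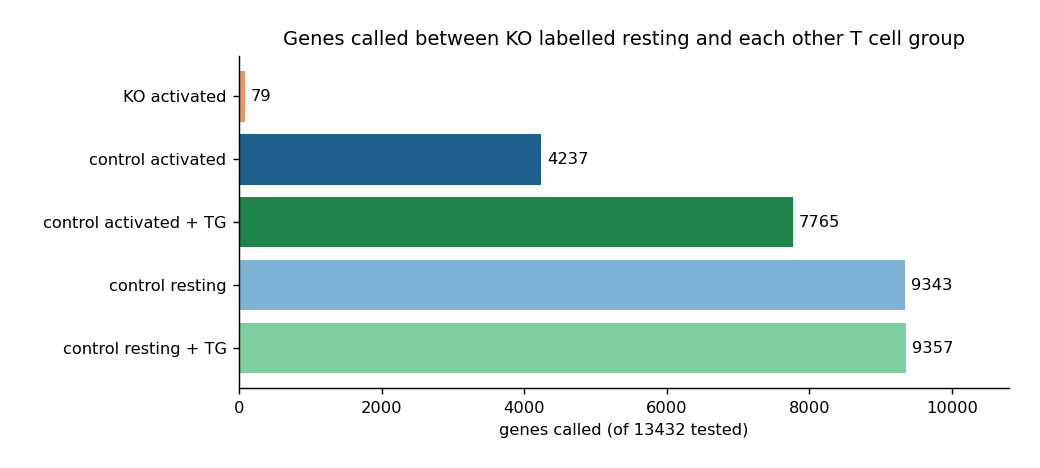
Number of genes called (edgeR, adjusted p below 0.05) between the libraries labelled resting Atp2a2 KO and each other T cell group. The bar for activated KO holds 79 genes (15 to 191 with 1 KO library left out) and the bar for resting control 9343.

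The gene groups below were compared with these shares in mind: a group whose members are called at about the 69.6% of all genes is not set apart by its count. All values of groups are medians of log2 differences over the tested members, and the median over all tested genes was -0.022. Members named because few of a group moved one way, and so outside the naming rule, were chosen after their values were seen.

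The genes with the largest fitted change were named first, among called genes with 10 CPM or more in the higher group and no overlap between the groups. The fitted value of a gene without counts in a group depends on the prior count, so its place in the order is not fixed. By this rule the 8 that rose most were Il1a, Il22, Ccl9, Rbpms2, Lad1, Inhba, Ifng and Ccl3, of which all but the RNA-binding protein Rbpms2 and the anchoring filament protein Lad1 are described below. Rbpms2 had no count in resting control and was at least 79.6-fold higher, and Lad1 had 94.4 and 93.3 CPM in the libraries labelled resting KO against 2 counts in all in resting control, a ratio of 1090 (95% exact interval 302 to 9020). The 8 that fell most were Ifit1bl1, Cd7, Cxcr3, Ret, Rtp4, Nod1, Calhm6 and Ifi208. Cd7, a T and NK cell surface receptor, had 0.481 and 0.406 CPM in the labelled resting KO, against 36.1 and 33.9 CPM in resting control and 0.408 and 0.833 CPM in activated control. Ret, a receptor tyrosine kinase, had 0 and 0.507 CPM in the labelled resting KO, against 16 and 16.1 CPM in resting control and 0.291 and 0.303 CPM in activated control. All 16 named genes were called in the same direction in activation of control cells.

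Secreted cytokines and chemokines had the largest median rise of the 25 lists. Of 26 tested, 20 rose and 3 fell in the libraries labelled resting KO, with a median log2 difference of 4.45, and the 3 that fell were Lta, Ltb and Fasl. In activation of control cells 23 rose and 2 fell, with a median of 3.71. Interferon gamma (Ifng), the defining cytokine of effector CD8 T cells, had 7364 and 7414 CPM in the libraries labelled resting KO, against 9.01 and 9.79 CPM in resting control. It had 7386 and 7815 CPM in activated KO and 4712 and 4874 CPM in activated control. All 4 KO libraries lay above both activated control libraries, and the log2 difference from activated control was 0.62 ± 0.03 (edgeR adjusted p = 2.8e-24).

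The chemokine genes moved with it. Ccl3, an inflammatory chemokine that draws in leukocytes, had 1290 and 1288 CPM in the libraries labelled resting KO, against 2.01 and 3.69 CPM in resting control and 1403 and 1446 CPM in activated control. Ccl4, its close relative, had 489 and 480.2 CPM in the labelled resting KO, against 5.23 and 6.37 CPM in resting control and 472 and 496 CPM in activated control. Xcl1, which attracts cross-presenting dendritic cells, had 767 and 745 CPM in the labelled resting KO, against 1.69 and 3.05 CPM in resting control and 1109 and 1115 CPM in activated control. The labelled resting KO and activated control ranges overlapped for Ccl4 but not for Ccl3 or Xcl1, which were lower in the labelled resting KO.

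Some cytokine genes were silent in resting control, so their change is a lower bound. Interleukin 2 (Il2), the T cell growth factor, had 7.98 and 9.33 CPM in the libraries labelled resting KO and no count in either resting control library, which makes it at least 67-fold higher, taking 3 counts over the resting control group as the floor. Against activated control, with 16.2 and 15.8 CPM, it was lower (log2 difference -0.89 ± 0.13). Il22, an epithelial repair cytokine, had 19.7 and 19.3 CPM and was at least 151-fold higher by the same floor, and Il1a, an alarmin of the interleukin 1 family, had 19.9 and 24.1 CPM and was at least 170-fold higher. Il21, a cytokine that supports B cells and CD8 T cells, was at least 41-fold higher. The chemokine Ccl9 had 146 and 150.3 CPM against 3 counts in all over the 2 resting control libraries, a ratio of 1150 with a 95% exact interval of 393 to 5580 for counting error. Inhba, a subunit of activin A, had 45.3 and 41.2 CPM against 1 count in resting control. With the 3 group members without a count in resting control (Il2, Il21 and Ccl22) set to their bounds, the group median was 3.4, and 3.54 in activation.

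Il5 went further than activation. This eosinophil growth factor had 24.6 and 23.6 CPM in the libraries labelled resting KO and 23.7 and 25.5 CPM in activated KO. It had 3.85 and 3.03 CPM in activated control and 0.241 and 0.185 CPM in resting control. The log2 difference from activated control was 2.79 ± 0.14 (adjusted p = 5.6e-24). Tnf did not pass the test against resting control, with 89.7 and 96.3 CPM in the labelled resting KO, against 90.4 and 81.5 CPM in resting control (adjusted p = 0.073). It stood at 118 and 111 CPM in activated control, and 6 of 11 alternative settings called it.

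The promoters of Ifng and Il2 are shown because these cytokines carry the activation signature and are textbook NFAT targets. The 250 bases before each start are from RefSeq (GRCm38.p6), with the NFAT core GGAAA, on either strand, in capitals.
Il2 (chr3:37125955-37126204, minus strand): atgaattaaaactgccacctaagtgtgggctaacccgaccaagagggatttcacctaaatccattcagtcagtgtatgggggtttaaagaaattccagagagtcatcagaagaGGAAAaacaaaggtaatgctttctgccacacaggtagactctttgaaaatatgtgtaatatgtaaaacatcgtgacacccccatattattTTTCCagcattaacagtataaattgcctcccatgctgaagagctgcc
Ifng (chr10:118440796-118441045, plus strand): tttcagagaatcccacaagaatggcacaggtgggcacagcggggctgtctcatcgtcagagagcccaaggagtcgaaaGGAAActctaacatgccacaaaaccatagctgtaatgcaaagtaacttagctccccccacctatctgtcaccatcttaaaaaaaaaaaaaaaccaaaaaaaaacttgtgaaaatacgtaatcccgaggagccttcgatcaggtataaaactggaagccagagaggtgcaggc
The core occurs 2 times in the Il2 window and 1 time in the Ifng window. It is present in 20 of the 22 cytokine and chemokine genes of the list that matched a RefSeq promoter (90.9%), and in 55.6% of all 32851 promoters of the same length, or 58.8% of genes. A match of so short a motif is a description of the letters and not a binding site.

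Activation-induced receptors rose as a group. Of 16 tested, 12 rose and 3 fell, with a median log2 difference of 1.55, against 12 risen, 2 fallen and a median of 1.85 in activation of control cells. Against activated control, however, 12 were lower and 4 not called, with a median of -0.25. The high-affinity interleukin 2 receptor chain Il2ra (CD25) had 4595 and 4637 CPM in the libraries labelled resting KO, against 1343 and 1295 CPM in resting control and 5604 and 5745 CPM in activated control. Tnfrsf4 (OX40), a costimulatory receptor, had 364 and 357 CPM in the labelled resting KO, against 13.9 and 13.6 CPM in resting control and 397 and 410.1 CPM in activated control. Both receptors thus stood far above resting control and slightly below activated control. Cd200, an immune regulatory ligand, rose by 6.44 ± 0.14 on the log2 scale, and Cd70, the ligand of CD27, was at least 29.1-fold higher. The 3 that fell were Slamf7, Ly6a and the early activation marker Cd69, with 103 and 93.8 CPM in the labelled resting KO, against 119 and 117 CPM in resting control, a transcript that was not called in activation of control cells (115 and 112 CPM).

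Immediate early genes and NR4A factors, which follow receptor signalling within minutes to hours, rose in 17 of 23 and fell in 3 (Egr1, Jun and Dusp6), with a median log2 difference of 1.16. Nr4a1 (NUR77), widely read as a reporter of receptor signalling, had 102 and 104 CPM in the libraries labelled resting KO, against 2.73 and 3.79 CPM in resting control. In activated KO it had 99.7 and 100.2 CPM and in activated control 112 and 113 CPM. It rose by 4.998 ± 0.10 against resting control and did not pass the test against activated control (log2 difference -0.12, adjusted p = 0.052). Egr2, an NFAT target linked to restraint of T cells, had 48.96 and 54.6 CPM in the labelled resting KO, against 1.93 and 1.94 CPM in resting control and 43.96 and 39.5 CPM in activated control. Nr4a2 and Spry1, an inhibitor of growth factor signalling, rose by 4.71 and 5.45. NF-kB genes rose in 14 of 15 tested, with a median of 1.07, and Rela was the member not called. The inhibitor Nfkbia had 125 and 137 CPM in the labelled resting KO, against 24.7 and 24.2 CPM in resting control, and Rel, an NF-kB subunit, had 247 and 248 CPM in the labelled resting KO, against 46.4 and 48.95 CPM in resting control.

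Transcription factors of effector and memory cells split. Of 21 tested, 11 rose and 8 fell (median 0.64), next to 11 risen, 9 fallen and a median of 0.24 in activation of control cells. Irf4, which scales effector differentiation with signal strength, had 754 and 765 CPM in the libraries labelled resting KO, against 241 and 234 CPM in resting control and 1036 and 1040 CPM in activated control. Myc, the driver of growth, had 419 and 423 CPM in the labelled resting KO, against 194 and 212 CPM in resting control and 569 and 556 CPM in activated control. Both stood between the resting and the activated control. Zeb2, a factor of terminal effectors, rose by 4.93 ± 0.12, while Id3, kept by memory precursors, fell by 4.52 ± 0.19 and Tox fell by 3.33 ± 0.33 on the log2 scale. Tbx21 (T-bet) had 68.6 and 74.7 CPM in the labelled resting KO, against 40.4 and 44.4 CPM in resting control, and Eomes, its relative, had 98.6 and 100.5 CPM in the labelled resting KO, against 182 and 188 CPM in resting control.

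Cytotoxic granule genes rose in 14 of 21 and fell in 5, with a median log2 difference of 0.88, against 12 risen, 9 fallen and a median of 0.28 in activation of control cells. Perforin (Prf1), which opens the target membrane, had 1490 and 1495 CPM in the libraries labelled resting KO and 1573 and 1609 CPM in activated KO. It had 947 and 950.3 CPM in activated control and 319 and 304 CPM in resting control. All 4 KO libraries were above both control groups, and the log2 difference from activated control was 0.65 ± 0.03 (adjusted p = 1.5e-23). Granzyme B (Gzmb), the main killer protease, had 19400 and 19110 CPM in the labelled resting KO, against 10690 and 10250 CPM in resting control and 19870 and 20390 CPM in activated control, and it did not pass the test against activated control (adjusted p = 0.084). Granzyme A (Gzma) fell, with 1350 and 1332 CPM in the labelled resting KO, against 2122 and 2010 CPM in resting control. Serpinb9, a granzyme inhibitor that protects the killer cell, rose by 3.25 ± 0.04. Against activated control, 12 granule genes were higher and 2 lower. Gzmg, a member of the granzyme cluster with close copies whose reads may be counted only in part, had 154 and 152 CPM in the labelled resting KO, against 61.3 and 62.5 CPM in activated control and 75.5 and 72.4 CPM in resting control, so it moved opposite to activation. In their sum, markers of other killer and T cells also differed. The 8 NK and CD4 T cell markers summed to 53.6 and 53.7 CPM in the labelled resting KO, against 280.2 and 270.9 CPM in resting control and 61.4 and 57.8 CPM in activated control. Most of this was the gamma delta receptor constant segments, Tcrg-C1 with 10.6 and 11.2 CPM in the labelled resting KO, against 134 and 124 CPM in resting control, and Trdc with 40.02 and 38.8 CPM in the labelled resting KO, against 143 and 143 CPM in resting control. Of the 4 markers that could be tested, these 2 fell and 2 (Klre1 and Cd4) were not called. Klre1 had 1.92 and 2.23 CPM in the labelled resting KO, against 1.61 and 2.12 CPM in resting control. Cd4 had 0.7696 and 1.115 CPM in the labelled resting KO, against 0.8845 and 0.3694 CPM in resting control. The part of these markers in the changes of granule genes was not tested.

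Inhibitory receptors showed a departure from activation. Of 14 tested, 7 rose and 5 fell against resting control (median 0.76), but 12 were higher and 1, Btla, lower against activated control (median 0.53). Pdcd1 (PD-1) had 127 and 130.4 CPM in the libraries labelled resting KO and 117 and 125 CPM in activated KO. It had 40.8 and 40.7 CPM in activated control and 23.1 and 24.3 CPM in resting control, while in control cells with TG it had 98.5 and 96.5 CPM activated and 156 and 163 CPM resting. The log2 difference of the labelled resting KO from activated control was 1.66 ± 0.05 (adjusted p = 2.6e-32), against an activation change of 0.78 ± 0.07. Lag3, another checkpoint receptor, had 498 and 497 CPM in the labelled resting KO, against 136 and 139 CPM in resting control and 379 and 389 CPM in activated control. Ctla4, which competes for costimulatory ligands, had 659 and 662 CPM in the labelled resting KO, against 186 and 191 CPM in resting control and 501 and 499 CPM in activated control. Tigit had 182 and 176 CPM in the labelled resting KO, against 22.9 and 20.9 CPM in resting control and 145 and 152 CPM in activated control. These 4 receptors were above activated control in both libraries labelled resting KO.

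Genes of quiescence and of the naive or memory state fell in 18 of 23 and rose in 3 (Ccr7, Satb1 and Slfn2), with a median log2 difference of -0.92, next to 19 fallen, 4 risen and a median of -0.93 in activation of control cells. Tcf7 (TCF-1), the factor of stem-like memory, had 17.03 and 21.1 CPM in the libraries labelled resting KO, against 208 and 209 CPM in resting control. Activated control had 34.8 and 34.5 CPM, above the labelled resting KO (log2 difference -0.87 ± 0.09, adjusted p = 1.2e-11). Klf2, which holds T cells quiescent and recirculating, had 0.577 and 1.22 CPM in the labelled resting KO, against 14.6 and 14.5 CPM in resting control and 1.05 and 0.530 CPM in activated control. Pik3ip1, an inhibitor of PI3 kinase, fell by 3.87 ± 0.13 on the log2 scale. The interleukin 7 receptor Il7r did not pass the test, with 176 and 174 CPM in the labelled resting KO, against 173 and 169 CPM in resting control (adjusted p = 0.54). Lef1, the partner of TCF-1, fell by 0.95 ± 0.07.

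Homing and chemokine receptor genes fell in 13 of 17 tested and rose in 3 (Ccr4, Ccr8 and Itgb1), with a median of -1.01. Cxcr3, the receptor that leads effector cells to interferon-induced chemokines, had 0.866 and 0.507 CPM in the libraries labelled resting KO, against 49.05 and 46.7 CPM in resting control. In activated control it had 1.52 and 1.14 CPM. Itgae (CD103), an integrin that anchors cells in epithelium, had 1.64 and 1.72 CPM in the labelled resting KO, against 71.2 and 68.4 CPM in resting control and 4.49 and 4.16 CPM in activated control. Itgb7, its partner chain, had 46.4 and 46.7 CPM in the labelled resting KO, against 621 and 615 CPM in resting control and 62.4 and 59.9 CPM in activated control. All 3 also fell with activation, and Itgae and Itgb7 were lower in the labelled resting KO than in activated control, while Cxcr3 was not called there (adjusted p = 0.077). S1pr1, the receptor that lets lymphocytes leave lymph nodes, went further, with 8.66 and 9.94 CPM in the labelled resting KO, against 28.7 and 28.9 CPM in activated control and 51.5 and 48.02 CPM in resting control. Among cytokine receptors and their SOCS and PIM feedback genes, 7 rose and 13 fell of 20 (median -0.45). Both chains of the interleukin 18 receptor fell, Il18rap by 2.51 ± 0.05 and Il18r1 by 2.15 ± 0.07, as did both chains of the interferon gamma receptor, Ifngr1 by 2.06 ± 0.04 and Ifngr2 by 2.68 ± 0.14.

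Interferon-stimulated genes had the largest median fall of the 25 lists. Of 24 tested, 22 fell, 1 rose (Bst2) and 1 was not called (Oasl1), with a median log2 difference of -2.18, next to 22 fallen and a median of -2.02 in activation of control cells. Rtp4, a chaperone of receptors induced by type I interferon, had 0.289 and 0.304 CPM in the libraries labelled resting KO, against 16.9 and 17.6 CPM in resting control and 0.758 and 0.606 CPM in activated control. Oasl2, an antiviral protein of the oligoadenylate synthetase family, had 0.289 and 0.304 CPM in the labelled resting KO, against 12.1 and 11.2 CPM in resting control and 1.11 and 0.984 CPM in activated control. Rsad2 (viperin), an antiviral enzyme, had 3 counts over the 2 labelled resting KO libraries, against 95 over the 2 resting control libraries, a ratio of 0.0363 with a 95% exact interval of 0.00735 to 0.109 for counting error. Ifit3, which binds viral RNA complexes, had 1 count against 46 in resting control, a ratio of 0.025 (interval 0.000619 to 0.146), and has a close copy in the genome. Ifit1bl1, a relative of the IFIT family, had 1 count against 386 in resting control. The 10 myeloid markers summed to 5.96 and 4.36 CPM in the labelled resting KO, against 20.3 and 21.6 CPM in resting control and 3.85 and 4.16 CPM in activated control. Of the 5 that could be tested 4 fell and 1 rose (Cd14, at 1.06 and 0.507 CPM in the labelled resting KO, against 0 and 0.369 CPM in resting control), and Cd68 carried most of the sum, with 3.46 and 3.04 CPM in the labelled resting KO, against 15.2 and 16.1 CPM in resting control. The call of Cd14 was lost without labelled resting KO replicate 1 or resting control replicate 1 and with DESeq2. The part of myeloid markers in the fall of interferon-stimulated genes was not tested.

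The promoters of Ifit3 and Rsad2 are shown because the fall of this group covers nearly all members. They hold the core of the interferon-stimulated response element, 2 copies of GAAA with 2 bases between them on either strand, in capitals, in the 250 bases before the start (RefSeq, GRCm38.p6).
Ifit3 (chr19:34583279-34583528, plus strand): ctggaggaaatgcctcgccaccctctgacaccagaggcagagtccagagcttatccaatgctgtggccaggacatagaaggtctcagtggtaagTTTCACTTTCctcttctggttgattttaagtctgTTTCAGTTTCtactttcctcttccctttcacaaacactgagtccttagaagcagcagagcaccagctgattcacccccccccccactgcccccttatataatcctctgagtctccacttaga
Rsad2 (chr12:26456453-26456702, minus strand): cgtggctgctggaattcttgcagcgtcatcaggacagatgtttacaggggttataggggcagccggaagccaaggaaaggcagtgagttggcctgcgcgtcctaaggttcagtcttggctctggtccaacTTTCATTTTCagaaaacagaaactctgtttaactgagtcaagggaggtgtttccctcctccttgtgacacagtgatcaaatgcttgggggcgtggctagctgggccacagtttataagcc
Ifit3 has 2 matches and Rsad2 has 1. Of the 18 genes of the list that matched a RefSeq promoter, 10 hold the motif (55.6%), against 3.46% of all 27025 genes and 2.98% of the 32851 promoters of the same length. The motif is part of the textbook definition of this gene class, and a match says nothing of what bound there in these cells.

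Growth and division genes moved in opposite directions. Ribosome biogenesis genes and MYC targets rose in 24 of 24 tested, with a median log2 difference of 1.2, and all 24 also rose in activation of control cells, with a median of 1.43. All 24 were lower in the libraries labelled resting KO than in activated control (median -0.23). Srm, the spermidine synthase, had 285 and 285 CPM in the labelled resting KO, against 68.2 and 63.3 CPM in resting control and 320.4 and 325 CPM in activated control. Mitosis genes fell in 24 of 24, with a median of -1.3, next to 24 of 24 and -0.83 in activation, and 23 of 24 were also below activated control. Mki67 (Ki-67), carried by dividing cells, had 316 and 278 CPM in the labelled resting KO, against 831 and 829 CPM in resting control and 475 and 433 CPM in activated control. Ccnb2, a cyclin of mitosis, fell by 2.27 ± 0.07 on the log2 scale. DNA replication genes fell in 25 of 26, Rfc3 being the one that rose, with a median of -0.54. In activation 20 of these genes fell and 1 rose, with a median of -0.26. In the labelled resting KO 21 of the 26 were below activated control. The replication licensing factor Cdt1 fell by 1.22 ± 0.07 against resting control. Among G1 cyclins and CDK inhibitors 5 rose and 11 fell of 20 (median -0.24), with Ccnd1 up by 2.45 ± 0.32 and the inhibitor Cdkn1b down by 1.63 ± 0.05. In bulk RNA, fewer cells of a kind and less RNA per cell cannot be told apart.

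The transcripts listed for the integrated stress response rose beyond activation in their median, and the activity of the pathway was not measured. Of 30 tested, 26 rose and 3 fell (Ddit4, Stc2 and Jdp2) against resting control, with a median log2 difference of 1.27, next to 22 risen, 5 fallen and a median of 0.73 in activation of control cells. Against activated control 26 were higher and 1, Atf3, was lower, with a median of 0.45. Cth, which makes cysteine, had 65.4 and 70.8 CPM in the libraries labelled resting KO and 66.5 and 68.2 CPM in activated KO. It had 36.8 and 39.1 CPM in activated control and 0.241 and 0.554 CPM in resting control. Slc7a11, the cystine importer, had 13.9 and 10.4 CPM in the labelled resting KO, against 3.09 and 4.54 CPM in activated control and 0.322 and 0.739 CPM in resting control. Aldh1l2, a mitochondrial folate enzyme, had 13.4 and 15.01 CPM in the labelled resting KO, against 4.02 and 4.16 CPM in activated control and 0.804 and 0.462 CPM in resting control. In all 3 genes the labelled resting KO libraries lay above every control library without TG. Ddit3 (CHOP), which links ER stress to cell death, moved opposite to activation, with 23.4 and 21.1 CPM in the labelled resting KO, against 18.98 and 16.7 CPM in resting control and 10.7 and 9.09 CPM in activated control. Its difference from resting control was small (log2 0.31 ± 0.11, edgeR adjusted p = 0.0072) and was not called without labelled resting KO replicate 1 (adjusted p = 0.106) or without resting control replicate 2 (0.0958). With TG it reached 96.2 and 88.9 CPM in activated control and 68.97 and 74.4 CPM in resting control.

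ER chaperone and ER stress genes rose in 24 of 30 and fell in 2 (Dnajc3 and Eif2ak3), with a median of 0.60, next to 21 risen, 4 fallen and a median of 0.39 in activation. Against activated control 20 were higher and 1, Edem1, was lower (median 0.18). Hspa5 (BiP), the main ER chaperone, had 2312 and 2261 CPM in the libraries labelled resting KO and 2211 and 2308 CPM in activated KO. It had 1834 and 1897 CPM in activated control and 726 and 700.4 CPM in resting control. The log2 difference from activated control was 0.29 ± 0.03 (adjusted p = 5.8e-11), smaller than the activation change of 1.39 ± 0.03. Hyou1, another ER chaperone, rose by 1.81 ± 0.04 against resting control and by 0.14 ± 0.04 against activated control.

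Calcium pumps and channels fell in 15 of 24 and rose in 6, with a median of -0.47, next to 15 fallen, 6 risen and a median of -0.46 in activation. Itpr1, the receptor that releases ER calcium, had 377 and 364 CPM in the libraries labelled resting KO, against 124 and 124 CPM in resting control and 376 and 363 CPM in activated control. Orai2, a plasma membrane calcium channel, fell by 1.56 ± 0.09. Atp2b4 (PMCA4), which pumps calcium out of the cell, was not called in activation and was lower in the KO, with 158 and 146 CPM in the labelled resting KO, against 258 and 256 CPM in resting control and 250.3 and 256 CPM in activated control. Among calcineurin and NFAT genes 5 rose and 7 fell of 13 (median -0.36). Nfatc1 had 169.7 and 166 CPM in the labelled resting KO, against 231 and 236 CPM in resting control and 108 and 104 CPM in activated control. Rcan1, an NFAT-induced inhibitor of calcineurin, had 10.9 and 8.52 CPM in the labelled resting KO, against 6.59 and 8.13 CPM in resting control. It was called (log2 0.41 ± 0.16, adjusted p = 0.017) but not without labelled resting KO replicate 1 (adjusted p = 0.326) or resting control replicate 1 (0.225). With TG it reached 52.6 and 55.5 CPM in resting control.

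Metabolic, survival and p53 genes were mixed. In the cholesterol synthesis group, 17 of 23 members rose and 2 fell (Ebp and Srebf2), with a median of 0.50, and 11 members were lower than in activated control and 12 not called. Glycolysis genes rose in 7 and fell in 7 of 22, with a median near 0 (-0.0029). The hexokinase Hk2 had 577 and 558 CPM in the libraries labelled resting KO, against 281 and 274 CPM in resting control and 787 and 785 CPM in activated control. Death genes fell in 9 of 15 and rose in 2, with a median of -0.39, next to 8 fallen, 2 risen and a median of -0.26 in activation. Bcl2l11 (BIM), a killer of the BCL-2 family, had 59.7 and 56.3 CPM in the labelled resting KO, against 194 and 193 CPM in resting control and 23.3 and 23.9 CPM in activated control, so it fell less than with activation (log2 difference from activated control 1.30 ± 0.07, adjusted p = 3.8e-23). Of 10 survival genes 6 rose and 4 fell, with Bcl2l1 (BCL-XL) up by 1.22 ± 0.04. Among 18 p53 targets 9 rose and 5 fell (median 0.13), led by the kinase Plk2, which rose by 3.41 ± 0.08.

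**Figure D5:**
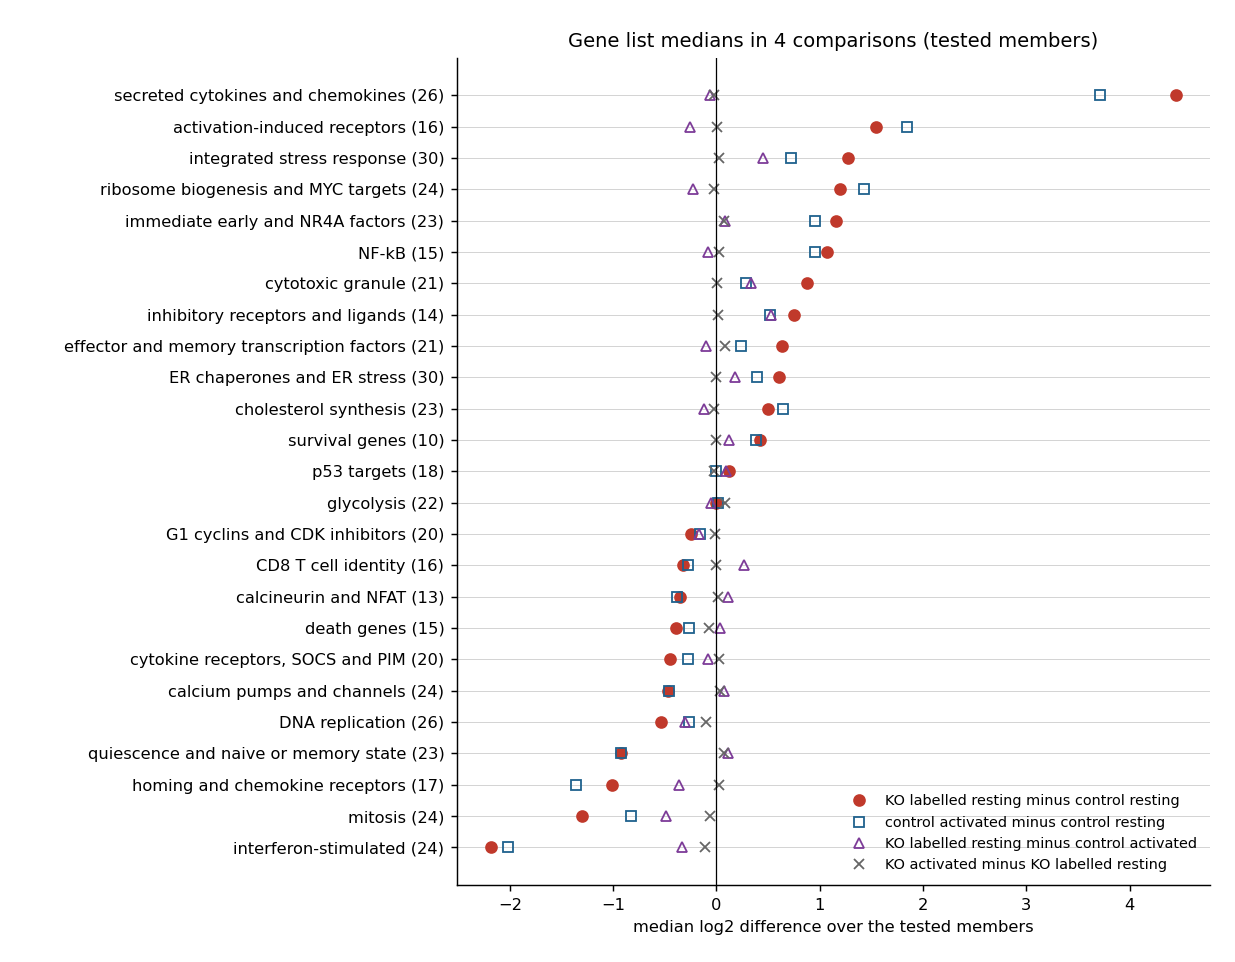
Median log2 difference over the tested members of 25 gene lists (number tested in brackets) for 4 comparisons, ordered by the labelled resting KO minus resting control. The filled circles follow the open squares of activation across the lists, and the crosses of activated KO minus labelled resting KO all lie near 0.

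Against activated control, 2014 genes were higher and 2223 lower in the libraries labelled resting KO. As the median share of activation was 0.884, this contrast holds changes short of activation as well as any other difference. At 2-fold or more, 286 were higher and 82 lower. The same contrast in the activated KO libraries called 4986 genes (37.1%), 2357 higher and 2629 lower, against the same 2 activated control libraries. The genes that rose most included Itih5, a hyaluronan-binding matrix protein, with 22.2 and 22.5 CPM in the labelled resting KO, against 0.933 and 2.27 CPM in activated control and 8.28 and 8.59 CPM in resting control. Pglyrp1, a peptidoglycan-binding protein, had 16.8 and 16.7 CPM in the labelled resting KO, against 1.87 and 2.04 CPM in activated control and 11.98 and 12.3 CPM in resting control. Scml4, a Polycomb-related factor, had 15.5 and 11.9 CPM in the labelled resting KO, against 1.81 and 2.04 CPM in activated control and 42.1 and 44.5 CPM in resting control. For Itih5 and Pglyrp1 the labelled resting KO was above both control groups, while Scml4 lay between them. Besides S1pr1, Il22 and Il21, the genes that fell most included Igfbp4, which binds insulin-like growth factors (log2 -1.12 ± 0.16), and the transcription factor Foxf1 (-1.25 ± 0.18).

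Genes called against resting control but not in activation, or opposite to it, were led by Stard9, Chst2 and Synpo. Stard9, a kinesin-related protein, had 27.7 and 23.9 CPM in the libraries labelled resting KO and 34.8 and 25.5 CPM in activated KO. It had 2.97 and 3.18 CPM in activated control and 3.62 and 3.42 CPM in resting control. Its exons overlap those of Cdan1 on the other strand, so with the strand of counting not stated it can carry reads of both. Chst2, a sulfotransferase that builds selectin ligands, had 20.6 and 25.6 CPM in the labelled resting KO and 20.97 and 21.4 CPM in activated KO. It had 5.36 and 5.38 CPM in activated control and 5.23 and 4.99 CPM in resting control. Synpo, an actin-binding protein, had 19.8 and 20.99 CPM in the labelled resting KO, against 2.92 and 2.50 CPM in activated control and 4.83 and 5.26 CPM in resting control, so it rose where activation lowered it. These 3 genes were high in all 4 KO libraries and low in all 4 control libraries without TG.

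The same genes were high in resting control with TG, which had 69.6 and 64.5 CPM of Stard9, 122 and 127 CPM of Chst2 and 105 and 101 CPM of Synpo. The difference between labelled resting KO and activated control, and that between resting control with TG and resting control, share no library. Of the 4237 genes called in the first, 2135 (50.4%) were called in the same direction in the second, 1279 (30.2%) in the opposite direction and 823 (19.4%) not at all. Of all genes tested, TG changed 69.2% in resting control cells, 4574 higher and 4726 lower. The 2135 genes were 23% of the 9300 called with TG. At 2-fold or more, 173 of 368 had the same direction and 87 the opposite one.

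Other genes outside activation included Vldlr, a lipoprotein receptor, with 22.03 and 19.8 CPM in the labelled resting KO, against 7.80 and 9.33 CPM in resting control and 10.2 and 9.24 CPM in activated control. The kinesin Kif13b and Farp1, a guanine nucleotide exchange factor, rose by 0.83 ± 0.09 and 1.26 ± 0.08 against resting control. Among genes that fell, Gpr183 (EBI2), an oxysterol receptor that guides lymphocytes, had 18.8 and 18.6 CPM in the labelled resting KO, against 32.8 and 32.97 CPM in resting control and 31.8 and 35.2 CPM in activated control. Lmna, the nuclear lamin A, rises with activation, yet it had 80.04 and 75.9 CPM in the labelled resting KO, against 124 and 124 CPM in resting control and 154 and 144 CPM in activated control. Cacnb3, a calcium channel subunit, and the plexin Plxnb2 fell by 0.85 ± 0.14 and 0.78 ± 0.11.

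Between activated and labelled resting KO, 63 genes were higher and 16 lower, and this count rests on single libraries. It was 38 without labelled resting KO replicate 1, 15 without labelled resting KO replicate 2, 23 without activated KO replicate 1 and 191 without activated KO replicate 2, and DESeq2 called 35. The only called gene past 2-fold, the gene model Gm37660, was under 1 CPM in all 4 KO libraries. Of the 79 genes, 39 moved in the direction of activation of control cells and 35 in the opposite direction, and 5 were not called there. The contrasts share no library. Ccl1, a chemokine of activated T cells, had 101 and 101 CPM in activated KO, against 131 and 136 CPM in the libraries labelled resting KO (log2 difference -0.40 ± 0.05, adjusted p = 3.2e-07). Btg2, an antiproliferative gene, had 75.3 and 82.1 CPM in activated KO, against 104 and 101 CPM in the labelled resting KO. Ctla4 had 778 and 795 CPM in activated KO, against 659 and 662 CPM in the labelled resting KO (log2 difference 0.25 ± 0.03, adjusted p = 9.7e-06). Ccl1, whose level activation raised, was thus lower in the KO library pair labelled activated. The scaffold protein Bcar1 and the immediate early gene Arc differed by 0.58 ± 0.12 and -0.66 ± 0.14. Of the 26 cytokine and chemokine genes, 1 was higher and 3 were lower in activated KO than in the libraries labelled resting KO.

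The change labelled activation differed between the genotypes in 8771 genes (65.3%), by the interaction term of the same fit. In Nr4a1 the difference of KO activated minus labelled resting was -0.05 ± 0.05, against 5.12 ± 0.09 for control activated minus resting. In Il2ra it was 0.04 ± 0.03, against 2.10 ± 0.03. These interaction values carry the doubt about the label in full.

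T cell identity genes were present in all libraries, and other traces differed between the groups. All 16 CD8 T cell identity genes were detected, of which 6 rose and 9 fell against resting control (median -0.32). Cd8a had 747 and 746 CPM in the libraries labelled resting KO, against 653 and 649.6 CPM in resting control, and the receptor chain Cd3e had 291 and 296 CPM in the labelled resting KO, against 615 and 629 CPM in resting control. The 10 markers of B cells and antigen-presenting cells summed to 61.4 and 64.9 CPM in the labelled resting KO, against 33.7 and 33.4 CPM in resting control and 71.4 and 68.9 CPM in activated control. Of the 5 that could be tested 1 rose (Cd74), 2 fell (Ciita and Cd79b) and 2 were not called, with a median of -0.16. Cd74, the invariant chain, carried the higher sum, with 40.9 and 42.2 CPM in the labelled resting KO, against 4.99 and 4.99 CPM in resting control and 46.4 and 44.4 CPM in activated control. Of 13 mitochondrial mRNA genes 7 could be tested, 3 of them rose in the labelled resting KO and 4 were not called (median 0.21), next to 7 of 7 in activation.

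In their sum, melanoma markers set the KO libraries apart from every control library. The 8 markers summed to 1.25 and 0.304 CPM in the libraries labelled resting KO, and to 1.34 and 1.08 CPM in activated KO. They summed to 5.07 and 7.34 CPM in activated control and to 5.31 and 5.54 CPM in resting control. Tyrp1, a melanin enzyme, had 0.0962 and 0 CPM in the labelled resting KO, against 2.09 and 2.40 CPM in resting control, and was at 0 in both activated KO libraries. Dct, another melanin enzyme, had 0.0962 and 0 CPM in the labelled resting KO, against 1.21 and 1.20 CPM in resting control. Of the 4 markers that could be tested against resting control, these 2 fell and 2 (Pmel and Mitf) were not called. Mitf had 0.192 and 0.304 CPM in the labelled resting KO, against 0.402 and 0.369 CPM in resting control. In activated KO it had 0.584 and 0.663 CPM, above resting control. The KO libraries and the control libraries thus differ in the sum of these markers as well as in genotype. The part of this trace in the results above was not tested.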

How the data were processed

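The series holds RNA-seq libraries of mouse OT-I/Cas9 CD8 T cells and B16F10 melanoma cells. The authors deposited raw read counts per gene for 20 libraries. The submitters' processing notes name STAR (2.6.0c), HTSeq and GRCm38, with no role or order, and the strand setting and annotation are not given in the sources used here. Of 46603 gene identifiers, 46005 matched a symbol in the reference name table. The others held 0.0759% of counts and stayed in the fit under their identifier. Positions came from GENCODE M21 and promoters from RefSeq, both on GRCm38.

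The 12 T cell libraries (9985311 to 17462770 counts) were fitted in 6 groups with edgeR 4.0.16 in R 4.3.3, using TMM scaling, edgeR's default filter on low counts (13432 genes kept), a robust quasi-likelihood F-test and Benjamini-Hochberg adjustment over all tested genes at 0.05. The 6 groups of 2 leave 6 residual degrees of freedom. Standard errors are the log2 difference divided by the square root of F. Intervals and floors cover counting error only, since reads without molecular identifiers are not independent molecules. Replicate numbers come from the labels, which do not say whether same-numbered libraries are paired across groups, and the main fit used no pairing. The fit was tested on simulated counts.

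Named genes were, apart from a fixed panel, the called genes with the largest change in each comparison, among those whose groups do not overlap and whose higher group averaged 10 CPM or more, and up to 4 called members of each gene list with the largest change from resting control. The members, lists and rules were chosen with earlier results of these data known. Alternatives were DESeq2 1.42.0, RLE scaling, other filters, other sets of libraries, a replicate block and leaving out each replicate. Of 187 named genes, 37 share exon bases with an antisense gene and 12 with a gene on the same strand. Granzymes, Bcl2a1, Ifit and Serpinb genes have close copies whose reads may be split or lost. B16F10 libraries entered only the fit of all 20 libraries. A few genes that the naming rule selects are not reported here.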

Additional observations from a re-analysis of the deposited data

Results flagged for a closer look

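By the interaction term of the edgeR fit, the change labelled activation differed between Atp2a2 KO and control cells in 8771 of 13432 genes. The differences below are KO (activated minus labelled resting) minus control (activated minus resting), on the log2 scale, and they rest on the doubtful label of the 2 resting KO libraries. The value was -8.956 for Ifng and -9.047 for Ccl3, cytokine genes that activation raised in control cells. It was -1.405 for the chaperone Hspa5 and 2.421 for Tcf7, which activation lowered in control cells. For the calcium pumps it was -1.644 for Atp2a2 and 2.537 for Atp2a3.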

How the results depend on the processing

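Of 2045 values of named genes under up to 11 alternatives, 2028 kept their direction and side of the threshold. In 11 the call was lost (Rcan1, Ddit3, Zfp747, Cd14 and mt-Cytb), in 6 it was gained (Tnf), and 0 reversed. Called genes between activated and labelled resting KO numbered 79, but 184 with no filter on low counts, 35 with DESeq2 and 15 to 191 with 1 library left out (38 and 15 without labelled resting KO replicate 1 or 2, 23 and 191 without activated KO replicate 1 or 2). DESeq2 called 2684 genes between labelled resting KO and activated control and 3156 between activated KO and activated control. With no filter the split in the first of these was 1408 higher and 3117 lower. The median share of activation was 0.8848 and 0.8902 with split controls and 0.904 at 4-fold. With RLE scaling it was 0.8819, and with 1 library left out it was 0.8704 to 0.8878. With activation under TG as divisor it was 0.8713, over another gene set, the 2109 genes called at 2-fold or more under TG. The cause of these shifts was not tested.

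With the replicate block the calls numbered 9313 (labelled resting KO against resting control), 9955 (activation), 4200 (against activated control), 65 (activated against labelled resting KO) and 8716 (interaction). Deviations of same-numbered libraries correlated at 0.0567 between labelled resting KO and resting control. Over all pairs of T cell groups the correlation ran from -0.143 to 0.176. Fits without the labelled resting KO libraries, added after seeing the data, called 9970 genes in activation and 4947 between activated KO and activated control. With 2 libraries a group, a library left alone is assumed to vary like the other groups.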
